A study of Homo sapiens with 16 samples.

Results

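The circadian clock genes described here were 10 genes chosen by name from the deposited count table: the activators ARNTL (also called BMAL1) and CLOCK, the repressors PER1, PER2, PER3, CRY1 and CRY2, the nuclear receptors NR1D1 and NR1D2, and the output factor DBP. They were 10 of 58735 gene entries, and all 10 passed the filter on low counts that left 18121 genes. They were measured by poly-A RNA sequencing in differentiated HepaRG cells, a human liver progenitor line that gives hepatocyte-like and cholangiocyte-like cells. The combination group received 30 nM formoterol with 0.25 mM palmitic acid and 0.5 mM oleic acid, the fatty acids group received 0.25 mM palmitic acid and 0.5 mM oleic acid, the formoterol group received 30 nM formoterol, and the control group received a 1% BSA vehicle, which the labels name for control alone. Whether the treated groups also received BSA is not stated. In comparisons with control and in the interaction, treatment and a possible vehicle difference can therefore not be told apart. Each group had 4 libraries, 16 in all, and treatment lasted 3 days with fresh medium every day. All groups, controls included, were kept in 2% DMSO in a medium that, as the labels describe the growth medium, holds insulin, serum and the glucocorticoid triamcinolone acetonide. Formoterol is a long-acting agonist of the beta2-adrenergic receptor, which signals through cAMP, and palmitic and oleic acid are the common saturated and monounsaturated dietary fatty acids.

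The clock is a feedback loop of transcription. ARNTL and CLOCK pair on DNA elements called E-boxes and switch on the PER and CRY genes, whose proteins then block the pair, while NR1D1 and NR1D2 (REV-ERB alpha and beta) repress ARNTL through ROR elements. In liver this loop times much of metabolism through output factors such as DBP, TEF and HLF, and PER1 is also a direct target of cAMP signalling and of glucocorticoids. All cells were collected after the same length of treatment. The sources used here give neither the hour of collection nor any synchronization of the cells, and at a single time a changed mean level and a shifted rhythm cannot be told apart. In bulk RNA, fewer cells of a type and less RNA per cell cannot be told apart either.

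Promoter windows are shown for the 4 clock genes whose level passed the test in at least 1 pairwise comparison. These windows were searched for elements through which the loop is wired. They are RefSeq windows (GRCh38.p14) of 300 bases, from 250 before to 50 after an annotated start, printed along the gene's strand. Capitals mark matches on either strand to the E-box CACGTG, the E-prime box CACGTT, the D-box TTATGTAA bound by DBP, TEF and HLF, the REV-ERB and ROR element TAGGTCA and the cAMP response half-site TGACG. The windows lie at chr11:13277540-13277839 (plus strand) for the second ARNTL window, chr17:8152355-8152654 (minus strand) for PER1, chr12:107093500-107093799 (minus strand) for CRY1 and chr19:48637330-48637629 (minus strand) for DBP.
ARNTL: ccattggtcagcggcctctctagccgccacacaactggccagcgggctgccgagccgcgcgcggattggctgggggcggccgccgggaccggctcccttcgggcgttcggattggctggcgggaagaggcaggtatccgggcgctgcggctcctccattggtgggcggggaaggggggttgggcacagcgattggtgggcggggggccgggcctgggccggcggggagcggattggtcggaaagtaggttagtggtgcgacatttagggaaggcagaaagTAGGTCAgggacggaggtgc
PER1: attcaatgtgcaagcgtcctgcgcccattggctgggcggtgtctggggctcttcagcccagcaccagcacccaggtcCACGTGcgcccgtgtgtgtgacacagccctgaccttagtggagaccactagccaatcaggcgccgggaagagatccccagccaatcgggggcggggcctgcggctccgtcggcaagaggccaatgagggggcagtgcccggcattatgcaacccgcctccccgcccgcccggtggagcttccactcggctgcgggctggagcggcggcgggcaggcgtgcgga
CRY1: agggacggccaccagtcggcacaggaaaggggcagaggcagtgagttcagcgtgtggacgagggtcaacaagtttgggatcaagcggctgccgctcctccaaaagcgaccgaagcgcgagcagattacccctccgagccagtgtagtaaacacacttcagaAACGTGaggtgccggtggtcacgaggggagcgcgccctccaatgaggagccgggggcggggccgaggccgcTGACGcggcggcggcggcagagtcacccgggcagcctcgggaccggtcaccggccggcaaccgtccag
DBP: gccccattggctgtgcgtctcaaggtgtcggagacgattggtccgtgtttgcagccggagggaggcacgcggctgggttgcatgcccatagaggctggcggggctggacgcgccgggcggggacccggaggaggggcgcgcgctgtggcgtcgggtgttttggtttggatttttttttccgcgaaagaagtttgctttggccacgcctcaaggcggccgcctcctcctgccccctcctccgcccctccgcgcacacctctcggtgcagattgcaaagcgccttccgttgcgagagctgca

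The second ARNTL window held an exact match to the REV-ERB and ROR element 31 bases after the start. The first, not printed, held none of the searched letters. The PER1 window held an E-box, the CRY1 window an E-prime box and a cAMP response half-site, and the DBP window none of the searched letters. All 10 clock genes matched a RefSeq promoter, with 15 windows between them. A gene was counted if any of its windows matched, while the shares below are of single windows, so they are not like for like. The E-box was found in 2 of the 10 genes (PER1 and NR1D2) and in 7.26% of 35116 RefSeq windows of this length. The E-prime box was found in 5 genes (CLOCK, NR1D1, PER2, CRY1 and CRY2) and in 5.34% of all windows. The exact D-box letters TTATGTAA were found in NR1D2 and PER3, and in 0.886% of all windows. The REV-ERB and ROR element was found in ARNTL and CRY2, and in 1.85% of all windows. The full cAMP response element TGACGTCA, which contains the half-site, was found in 0 of the 10 genes and in 1.85% of all windows. The half-site alone was found in 5 genes and in 24.6% of all windows. Matches are letters in a window, and binding was not measured. The search took only the exact letters given, so other spellings of an element were not counted. Elements outside the windows were not searched, so a window without a match does not mean a gene without the element.

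Libraries held 32471299 to 65673126 counts, and levels are given as CPM, counts scaled to a common library total, after TMM scaling, which corrects library totals for composition. The labels call the libraries independent replicates without naming separate cultures. P-values therefore reflect the spread among these libraries alone, which may be technical. Hepatocyte markers were abundant, with ALB (albumin) averaging 24892 CPM over the 16 libraries. Of 8 cholangiocyte markers, KRT19 and CD24 each averaged 102 CPM and SOX9 36.7 CPM, but KRT7 averaged 0.394 CPM and EPCAM had 0 counts. The 10 hepatocyte markers summed to 27771 to 67114 CPM in the combination, 56871 to 64517 with fatty acids, 67539 to 72680 with formoterol and 29570 to 43375 in control. Their log2 changes in the combination against control ran from −1.72 to 1.00. CYP3A4, the lowest, averaged 663 CPM in the combination, 1917 with fatty acids, 2374 with formoterol and 2181 in control. The 8 proliferation genes summed to 485 to 764, 321 to 427, 254 to 281 and 198 to 231 CPM in the same order. The 6 cholangiocyte markers that passed the filter summed to 256 to 334 CPM in the combination, 317 to 370 with fatty acids and 190 to 200 with formoterol, against 164 to 169 in control. Their log2 changes against control ran from −1.12 to 1.49 in the combination and from −0.72 to 1.52 with fatty acids. SOX9, the lowest in both, averaged 22.1 CPM in the combination, 29.2 with fatty acids, 47.5 with formoterol and 47.9 in control. Of 8 stellate cell and fibroblast markers 6 passed the filter, with DCN at 501, LUM at 97.1 and PDGFRB at 50.1 CPM over the 16 libraries and COL1A2 at 0 counts. They summed to 606 to 765 CPM in the combination, 757 to 886 with fatty acids, 469 to 512 with formoterol and 639 to 803 in control. Of 5 endothelial markers 2 passed, and CDH5 had 0 counts, but KDR averaged 70.2 CPM in the combination, 162 with fatty acids, 44.2 with formoterol and 119 in control. Combination replicate 2 stood apart, with the lowest hepatocyte sum (27771 CPM) and the highest proliferation sum (764 CPM) of the 16 libraries, so each clock gene result below is also given without it where its call differed. Among the controls, replicate 3 had the lowest hepatocyte sum (29570 CPM, the others 38229 to 43375) and the highest proliferation sum (231 CPM). PER1 calls lost without that control are named below. The part of cell composition or growth in the clock gene results was not tested.

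Per kilobase of the gene length in the file, PER1 had the highest level of the 10 genes over the 16 libraries, at 14.5 ± 2.12 CPM per kb (SD, n = 16). NR1D2 followed with 12.7 ± 0.971, CRY2 with 10.5 ± 0.690, ARNTL with 9.09 ± 1.22 and CLOCK with 7.26 ± 0.574 CPM per kb. The ranges of each of these genes overlapped that of its neighbour in this order. NR1D1 and CRY1, with 4.43 ± 0.564 and 4.32 ± 0.584 CPM per kb, overlapped each other and lay below every CLOCK value. PER3 lay lower, at 1.53 ± 0.224 CPM per kb. PER2 and DBP were lowest and overlapped, at 0.532 ± 0.136 and 0.420 ± 0.117 CPM per kb. The mean levels of NR1D1 and CRY1 changed order between groups, though they were nearly equal with formoterol. CRY1 had 4.54 CPM per kb in the combination, 4.85 with fatty acids and 4.20 with formoterol, against 3.67 in control. NR1D1 had 4.12, 4.36 and 4.16 CPM per kb in those groups, against 5.07 in control. The order of the 2 genes was not tested. PER2 and DBP were thinly counted, with 70 to 201 and 62 to 150 counts per library, while CLOCK had 2749 to 4643.

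**Figure D1:**
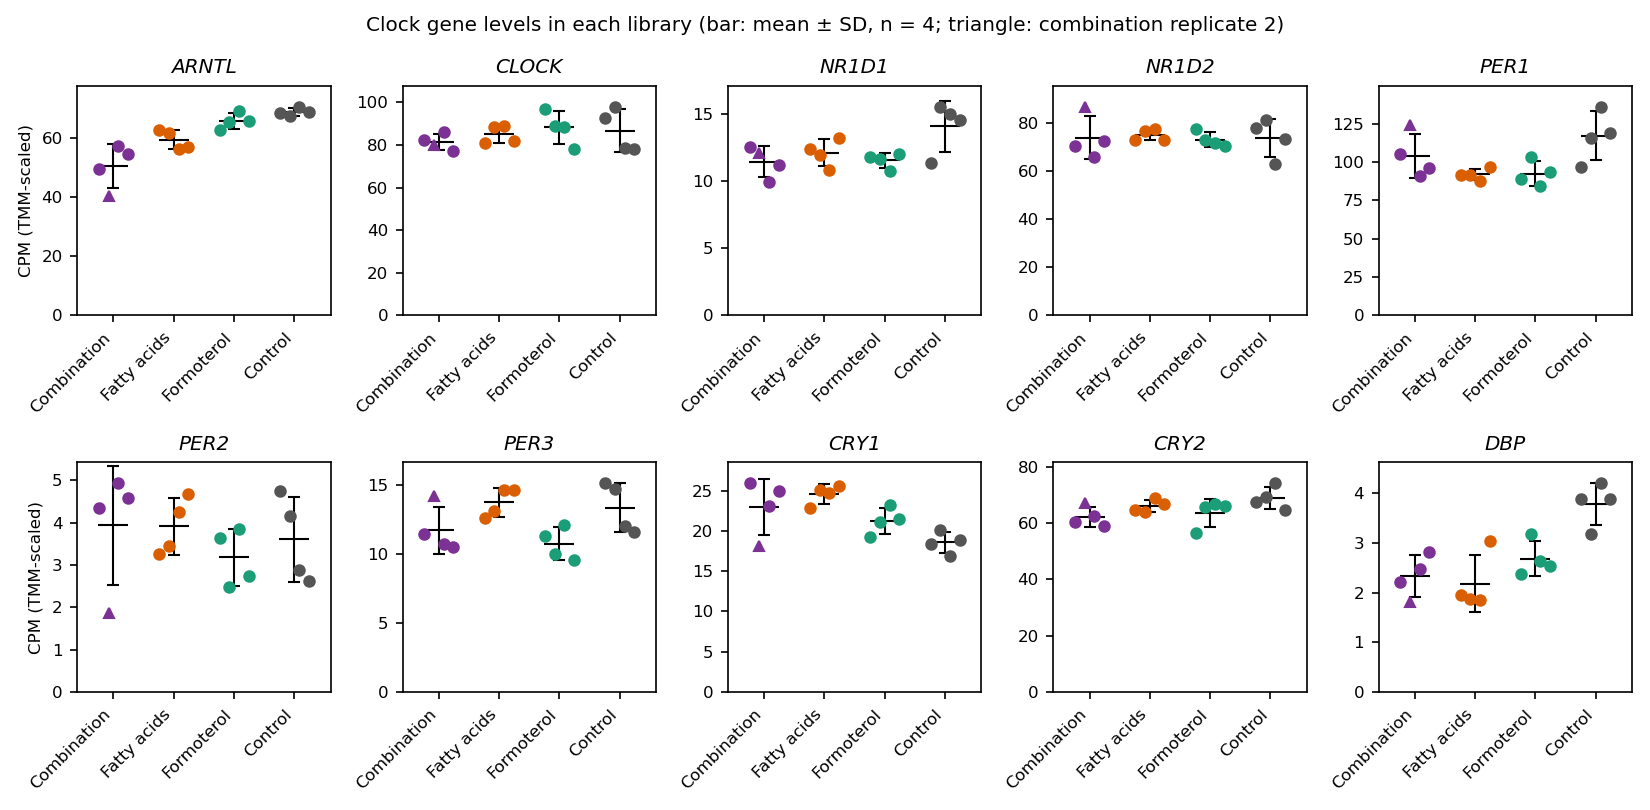
CPM (TMM-scaled, y axis from 0) of each clock gene in every library, by group on the x axis; points are libraries, the triangle is combination replicate 2, and bars are the mean ± SD of 4. All 4 fatty acids libraries lie above control for CRY1 and below it for ARNTL, PER1 and DBP.

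With fatty acids alone, CRY1 rose and PER1 and DBP fell, and the other 7 clock genes did not pass the test. The 3 called genes were 1 higher and 2 lower among 10, beside 16.5% of all tested genes called in this comparison, 8.93% higher and 7.62% lower. CRY1, the repressor that holds ARNTL and CLOCK inactive, had 22.8, 25.1, 24.7 and 25.6 CPM with fatty acids and 18.4, 20.1, 16.9 and 18.9 CPM in control. Every fatty acids library exceeded every control library, and the difference was 0.40 ± 0.10 on the log2 scale (SE; edgeR adjusted p = 0.00798). The period gene PER1 had 91.7, 91.6, 87.6 and 96.7 CPM with fatty acids and 97.0, 116, 136 and 119 CPM in control. Again the groups did not overlap, though the lowest control library was close to the highest treated one, and the log2 change was −0.35 ± 0.10 (edgeR adjusted p = 0.0151). Without control replicate 3, the highest of the controls, the PER1 change was −0.27 and the adjusted p 0.0691. DBP, a bZIP factor that carries clock timing to liver enzyme genes, had 1.96, 1.87, 1.86 and 3.03 CPM with fatty acids and 3.89, 3.19, 4.20 and 3.88 CPM in control. Its change was the largest of the 10, −0.79 ± 0.21 on the log2 scale (edgeR adjusted p = 0.0113), and fatty acids replicate 4 lay nearest to control.

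ARNTL, the activator, had 62.7, 61.8, 56.2 and 57.0 CPM with fatty acids and 68.4, 67.4, 70.5 and 68.9 CPM in control. These libraries did not overlap, but the log2 change of −0.21 ± 0.08 missed the threshold (edgeR adjusted p = 0.0805). Leaving out combination replicate 2, which belongs to neither group but enters the shared fit and the filter (18517 genes then passed it), gave −0.21 ± 0.06 with an adjusted p of 0.016. In all, 4 of the 10 clock genes had groups that did not overlap, beside 21.0% of all tested genes. The median change of the 10 was −0.04 on the log2 scale, and that of all tested genes was 0.01. CLOCK, the partner of ARNTL, averaged 85.0 ± 4.32 CPM with fatty acids and 86.8 ± 9.98 CPM in control (SD, n = 4 each). NR1D2 averaged 75.1 ± 2.28 CPM with fatty acids and 73.9 ± 7.91 CPM in control, and its log2 difference was 0.02 ± 0.08. NR1D1 averaged 12.1 ± 1.03 CPM with fatty acids and 14.1 ± 1.85 CPM in control, a log2 difference of −0.22 ± 0.11 (edgeR adjusted p = 0.216). PER2, PER3 and CRY2 had log2 differences of 0.12 ± 0.26, 0.04 ± 0.12 and −0.06 ± 0.07.

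With formoterol alone, PER1 fell and was the 1 clock gene called. It had 88.8, 103, 84.2 and 93.5 CPM with formoterol, and control had the 97.0 to 136 CPM given above. Formoterol replicate 2 overlapped the lowest control, and the log2 change was −0.34 ± 0.10 (edgeR adjusted p = 0.0266). Of all tested genes, 10.3% were called in this comparison, 5.76% higher and 4.57% lower. The PER1 call was lost when control replicate 3 or 4, or formoterol replicate 1, 3 or 4, was left out, with changes of −0.34 to −0.26 and adjusted p values of 0.0592 to 0.12. DBP was the 1 clock gene whose libraries did not overlap, beside 16.7% of all tested genes. It had 2.37, 3.19, 2.64 and 2.53 CPM with formoterol. The highest of these, replicate 2, lay below the lowest control library by less than the printed digits show, and DBP had a log2 difference of −0.50 ± 0.21 (edgeR adjusted p = 0.133).

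Among the genes not called with formoterol, PER3, the third period gene, averaged 10.7 ± 1.17 CPM with formoterol and 13.3 ± 1.80 CPM in control (SD, n = 4 each). Its log2 difference was −0.32 ± 0.12 (edgeR adjusted p = 0.11). NR1D1 averaged 11.5 ± 0.598 CPM with formoterol and 14.1 ± 1.85 CPM in control, a difference of −0.29 ± 0.11 (edgeR adjusted p = 0.117). Without control replicate 1, the lowest of the controls for NR1D1, its difference was −0.37 with an adjusted p of 0.0377. CRY1 averaged 21.3 ± 1.67 CPM with formoterol and 18.6 ± 1.32 CPM in control, and its difference of 0.19 ± 0.10 missed the threshold (edgeR adjusted p = 0.249). ARNTL, CLOCK, NR1D2, PER2 and CRY2 had differences of −0.06 ± 0.08, 0.02 ± 0.08, −0.02 ± 0.08, −0.19 ± 0.26 and −0.11 ± 0.07. The median of the 10 was −0.15, against −0.00 for all tested genes. This comparison depended on scaling. With library totals alone in place of TMM, the median of all tested genes moved to −0.14, higher calls made up 20.2% of calls in place of 55.7%, and PER1, DBP, NR1D1, PER3 and CRY2 were all called lower.

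With the combination, ARNTL and DBP were lower than in control and CRY1 was higher. ARNTL had 49.6, 40.5, 57.4 and 54.7 CPM in the combination. Every one of these lay below the lowest control library, 67.4 CPM, and replicate 2 was lowest. The log2 change against control was −0.44 ± 0.08 (edgeR adjusted p = 0.00056). Without combination replicate 2 it was −0.35 ± 0.07 (edgeR adjusted p = 0.00046), and it was called in all 23 alternative analyses. CRY1 had 25.9, 18.1, 23.1 and 24.9 CPM in the combination, so replicate 2 alone fell within the control range of 16.9 to 20.1 CPM. The log2 change was 0.31 ± 0.10 (edgeR adjusted p = 0.0439), close to the threshold. Without that library it was 0.40 ± 0.09 (edgeR adjusted p = 0.00264), but it was called in 8 of 23 alternatives, over which the adjusted p spanned 0.00264 to 0.158. DBP had 2.22, 1.81, 2.48 and 2.81 CPM in the combination, all below the lowest control at 3.19 CPM, and changed by −0.70 ± 0.21 (edgeR adjusted p = 0.025). It was called in 17 of 23 alternatives, and without combination replicate 2 it was −0.60 ± 0.22 (edgeR adjusted p = 0.0756).

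These 3 calls among 10 genes, 1 higher and 2 lower, stood beside 14.3% of all tested genes called in the combination against control, 7.58% higher and 6.68% lower. ARNTL and DBP were the 2 clock genes whose libraries did not overlap, beside 16.3% of all tested genes. The median change of the 10 was −0.16, against 0.00 for all tested genes. PER1 had 105, 124, 91.1 and 96.1 CPM in the combination, overlapping the controls, and its log2 difference was −0.17 ± 0.10 (edgeR adjusted p = 0.283). Replicate 2 was the highest of the 4, and without it the difference was −0.26 ± 0.09 (edgeR adjusted p = 0.0364). NR1D1 averaged 11.4 ± 1.15 CPM in the combination and 14.1 ± 1.85 CPM in control, a difference of −0.30 ± 0.11 (edgeR adjusted p = 0.0835), which without control replicate 1 was −0.39 (adjusted p = 0.0245). CRY2, the second cryptochrome, averaged 62.3 ± 3.61 CPM in the combination and 68.9 ± 3.98 CPM in control, a difference of −0.15 ± 0.07 (edgeR adjusted p = 0.168). CLOCK, NR1D2, PER2 and PER3 had differences of −0.09 ± 0.08, 0.00 ± 0.08, 0.13 ± 0.26 and −0.19 ± 0.12.

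Set against formoterol alone, the combination had lower ARNTL, and the other 9 clock genes did not pass the test. The formoterol libraries had 62.7, 65.5, 69.0 and 65.8 CPM of ARNTL, all above the highest combination library at 57.4 CPM. The log2 change was −0.38 ± 0.08 (edgeR adjusted p = 0.00238), and without combination replicate 2 it was −0.29 ± 0.07 (edgeR adjusted p = 0.00437). It was called in all 23 alternatives. This was 1 called gene of 10, beside 18.4% of all tested genes, 9.48% higher and 8.97% lower, and 1 of 10 without overlap, beside 21.1%. The median of the 10 was 0.00, against 0.01 for all tested genes. PER2, the most widely scattered member here, averaged 3.93 ± 1.40 CPM in the combination and 3.18 ± 0.670 CPM with formoterol (SD, n = 4 each), a difference of 0.31 ± 0.26. Combination replicate 2, at 1.87 CPM, was the lowest PER2 value of the 16 libraries, and without it the difference was 0.55 ± 0.22 (edgeR adjusted p = 0.104).

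Set against fatty acids alone, the combination changed 0 of the 10 clock genes by the edgeR test. DESeq2 also called 0. Of all tested genes 2.80% were called, 1.68% higher and 1.12% lower. ARNTL averaged 50.6 ± 7.44 CPM in the combination and 59.4 ± 3.30 CPM with fatty acids (SD, n = 4 each), a log2 difference of −0.23 ± 0.08 (edgeR adjusted p = 0.15), which without combination replicate 2 was −0.14 ± 0.07. The ranges overlapped, as they did for each of the 10 clock genes, while 9.34% of all tested genes did not overlap. PER1 averaged 104 ± 14.5 CPM in the combination and 91.9 ± 3.71 CPM with fatty acids, a difference of 0.18 ± 0.10 (edgeR adjusted p = 0.42), which without that library was 0.08 ± 0.09. PER3 averaged 11.7 ± 1.71 CPM in the combination and 13.7 ± 1.02 CPM with fatty acids, a difference of −0.23 ± 0.12 (edgeR adjusted p = 0.428). The other differences lay between −0.09 and 0.09, and the median of the 10 was −0.07, against 0.00 for all tested genes.

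**Figure D2:**
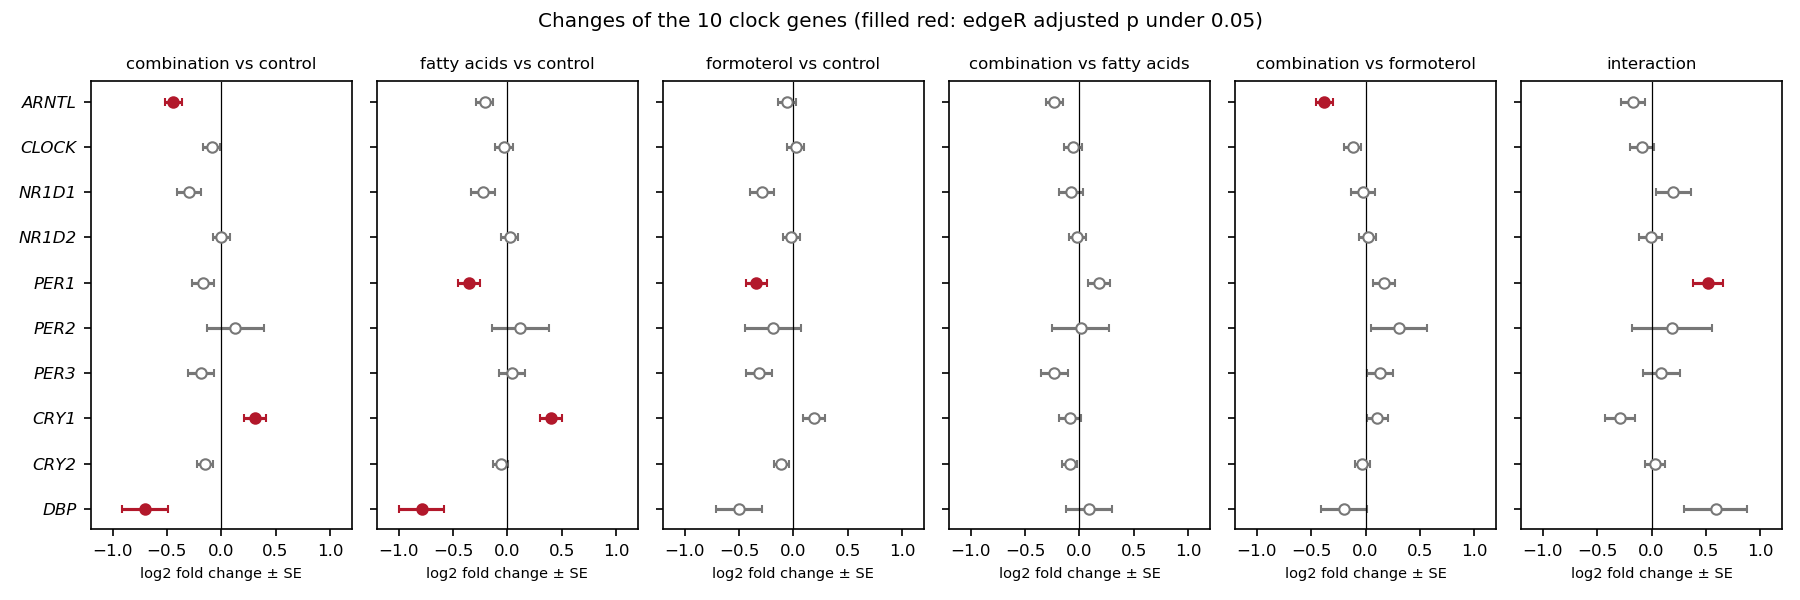
Log2 fold change ± SE (x axis) of the 10 clock genes (y axis) in the 5 comparisons and the interaction; filled red points passed an edgeR adjusted p of 0.05. ARNTL is red in the 2 comparisons of the combination with control and with formoterol, PER1 in the 2 single treatments and the interaction, CRY1 and DBP in the comparisons of fatty acids and the combination with control.

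The interaction asks whether formoterol acted differently with and without fatty acids (the difference between the combination and fatty acids, minus that between formoterol and control). PER1 was the 1 clock gene past the threshold, with a log2 interaction of 0.52 ± 0.14 (edgeR adjusted p = 0.0282). Beside it, 5.50% of all tested genes were called, 2.12% positive and 3.38% negative. PER1 was lower than control by similar amounts under each single treatment, −0.35 and −0.34 on the log2 scale, and averaged 104 CPM in the combination, 91.9 with fatty acids, 92.5 with formoterol and 117 in control. Control enters both of these differences and the interaction, and the part of the BSA vehicle, named for control alone, was not tested. Without combination replicate 2 the PER1 interaction was 0.42 ± 0.12 (edgeR adjusted p = 0.0304). It was positive in all 22 alternatives, from 0.42 to 0.68, and called in 13. The call was lost without control replicate 3 or 4, formoterol replicate 1, 3 or 4, fatty acids replicate 1, 2 or 3, or combination replicate 1, with adjusted p values of 0.0504 to 0.0735. DBP had a larger interaction with a larger error, 0.59 ± 0.29 (edgeR adjusted p = 0.271), and that of CRY1 was −0.29 ± 0.14 (edgeR adjusted p = 0.264). The median of the 10 was 0.06, against 0.01 for all tested genes.

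Count ratios of 2 genes within a library do not depend on library scaling. The ratio of CRY1 to PER1 counts was 0.246, 0.146, 0.254 and 0.259 in the combination, 0.249, 0.274, 0.281 and 0.265 with fatty acids, 0.216, 0.204, 0.276 and 0.230 with formoterol, and 0.190, 0.174, 0.125 and 0.158 in control. All fatty acids and all formoterol libraries lay above all controls, and combination replicate 2 was the 1 treated library inside the control range. CRY1 and PER1 differed from control in opposite directions under each single treatment above, so this separation restates those differences and is no further support. Ratios of further pairs were taken and are not shown, and the share of other gene pairs without overlap was not taken. The ratio of ARNTL to CLOCK counts was 0.506 to 0.711 in the combination, 0.632 to 0.775 with fatty acids, 0.646 to 0.841 with formoterol and 0.688 to 0.896 in control, so each group overlapped the next. The ratio of DBP to ARNTL counts had medians of 0.0447, 0.0323 and 0.0383 in those 3 treated groups and 0.0566 in control.

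**Figure D3:**
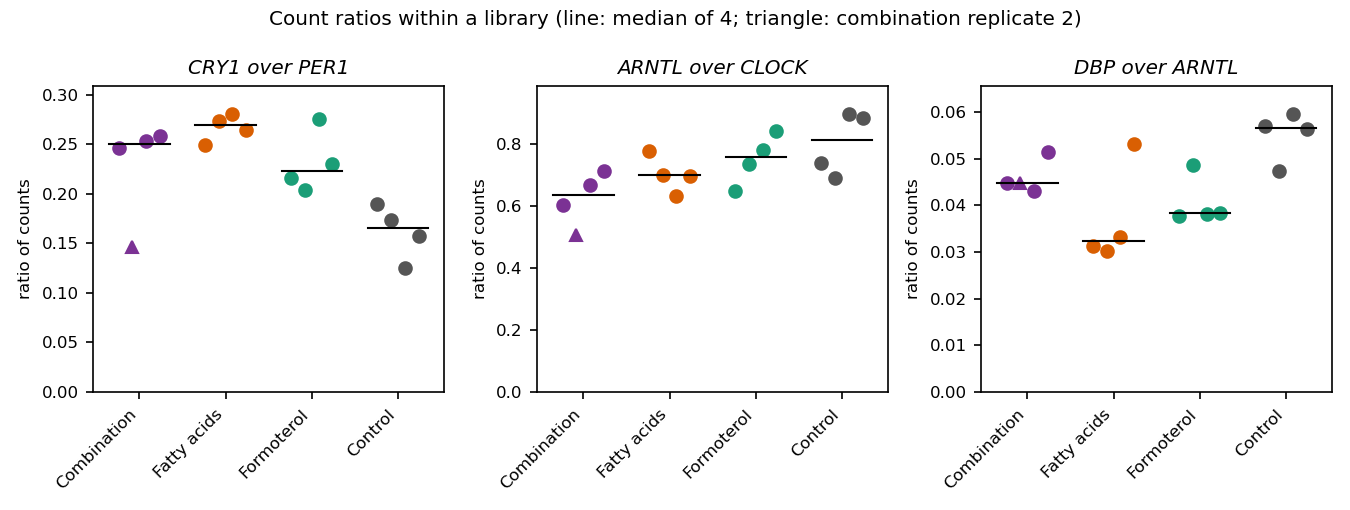
Ratio of counts of 2 clock genes within each library (y axis, from 0), by group on the x axis; lines are medians of 4 and the triangle is combination replicate 2. CRY1 over PER1 is above every control in the 4 fatty acids and the 4 formoterol libraries.

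The genes around the loop were described through a list of 29 clock partners, of which 28 passed the filter and PRKAA2, a catalytic subunit of the AMP kinase, did not. Of the 28, 6 rose and 4 fell in the combination against control, 8 rose and 4 fell with fatty acids, and 2 rose and 2 fell with formoterol, beside 14.3%, 16.5% and 10.3% of all tested genes called in either direction. Against fatty acids alone the combination had 7 higher and 3 lower, beside 2.80% of all tested genes, and against formoterol alone 6 higher and 4 lower, beside 18.4%. Without combination replicate 2, these counts were 8 and 5 in the combination against control, 9 and 4 with fatty acids and 4 and 2 with formoterol. Of the 18517 genes then tested, 15.2%, 19.4% and 14.0% were called. Against fatty acids the combination then had 6 and 4, beside 3.19%, and against formoterol 5 and 4, beside 14.6%. The median changes of the partners lay between −0.05 and 0.07 in the 5 comparisons of all libraries, beside −0.00 to 0.01 for all tested genes.

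Among the PAR bZIP factors, the family of DBP, TEF fell in every comparison with control. It ranged over 38.8 to 40.9 CPM in the combination, 40.2 to 51.2 with fatty acids and 46.3 to 53.3 with formoterol, and every such library lay below the control range of 64.1 to 69.5 CPM. Its log2 changes against control were −0.76 ± 0.07 in the combination, −0.59 ± 0.07 with fatty acids and −0.40 ± 0.07 with formoterol (edgeR adjusted p = 2.8e-07, 6.83e-06 and 0.00158). HLF, the third factor of that family, was lower in the combination than in each of the other 3 groups. It ranged over 54.0 to 71.7 CPM in the combination, 80.9 to 86.3 with fatty acids, 92.0 to 97.0 with formoterol and 65.2 to 91.3 in control. Its changes in the combination were −0.37 ± 0.09 against fatty acids, −0.53 ± 0.09 against formoterol and −0.31 ± 0.09 against control (edgeR adjusted p = 0.023, 0.000248 and 0.0201), and its interaction was −0.59 ± 0.12 (adjusted p = 0.00947). USP2, a deubiquitinase whose transcript cycles in liver, had the largest change with fatty acids, −1.31 ± 0.09 (edgeR adjusted p = 5.84e-10), with 15.6 to 17.1 CPM against 38.5 to 42.4 CPM in control. The combination, at 19.8 to 28.0 CPM, lay between the 2 and above every fatty acids library (0.55 ± 0.09, edgeR adjusted p = 0.000545).

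Of the activator paralogs and ROR receptors, RORA, which activates ARNTL, rose by 0.42 ± 0.11 with fatty acids, and its log2 change in the combination against fatty acids was −0.46 ± 0.11 (edgeR adjusted p = 0.00945 and 0.0192). Its interaction was −0.57 ± 0.15 (edgeR adjusted p = 0.0286). ARNTL2, the paralog of ARNTL, rose against control by 0.75 ± 0.24 in the combination and 0.81 ± 0.24 with fatty acids at a low level of 3.05 to 5.59 CPM in those 2 groups. Of the 4 further repressors, BHLHE40 (DEC1), which competes at E-boxes, rose by 0.27 ± 0.08 with formoterol and by 0.30 ± 0.08 in the combination against fatty acids (edgeR adjusted p = 0.031 and 0.0401). NFIL3, which competes with DBP at D-boxes, rose by 0.25 ± 0.06 in the combination against fatty acids.

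Casein kinases mark PER proteins for decay. The gene of one of them, CSNK1E, fell by 0.33 on the log2 scale with fatty acids and by 0.32 with formoterol (SE 0.07 each; edgeR adjusted p = 0.00373 and 0.00834), and its interaction was 0.60 ± 0.11 (adjusted p = 0.00266). It averaged 35.3 ± 2.46 CPM in the combination, 29.1 ± 2.25 with fatty acids, 29.3 ± 1.89 with formoterol and 36.5 ± 0.446 in control (SD, n = 4 each). CSNK1D changed by −0.40 ± 0.06 with fatty acids (edgeR adjusted p = 0.000145) and was 0.25 ± 0.06 higher in the combination than with fatty acids. GSK3B, a kinase of several clock proteins, changed by −0.27 ± 0.07 in the combination against control and −0.24 ± 0.07 against formoterol. TIMELESS, best known in mammals for DNA replication, rose by 0.57 ± 0.07 in the combination and 0.23 ± 0.07 with fatty acids against control, and PRKAA1 rose by 0.19 ± 0.06 with fatty acids.

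Of the rhythmic output genes, NAMPT, the rate-limiting enzyme of NAD salvage, rose against control by 0.44 ± 0.06 in the combination and by 0.22 ± 0.06 with formoterol (edgeR adjusted p = 1.51e-05 and 0.0189). It averaged 1808 ± 75.0 CPM in the combination, 1390 ± 91.4 with fatty acids, 1551 ± 73.7 with formoterol and 1331 ± 71.8 in control (SD, n = 4 each). WEE1, a kinase that restrains entry into mitosis, rose by 0.76 ± 0.10 in the combination and 0.70 ± 0.10 with fatty acids. The proliferation genes rose in the same comparisons, 8 of 8 in the combination and 7 of 8 with fatty acids, beside 7.58% and 8.93% of all tested genes called higher. In the combination 8 of 8 were also higher than with formoterol and 7 of 8 higher than with fatty acids, beside 9.48% and 1.68%. The part of the proliferation genes in the WEE1 and TIMELESS changes was not tested. KLF10, a zinc finger repressor, rose by 0.34 ± 0.06 in the combination and 0.53 ± 0.06 with fatty acids. TFRC, the transferrin receptor, rose by 0.24 ± 0.06 in the combination and 0.38 ± 0.06 with fatty acids.

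**Figure D4:**
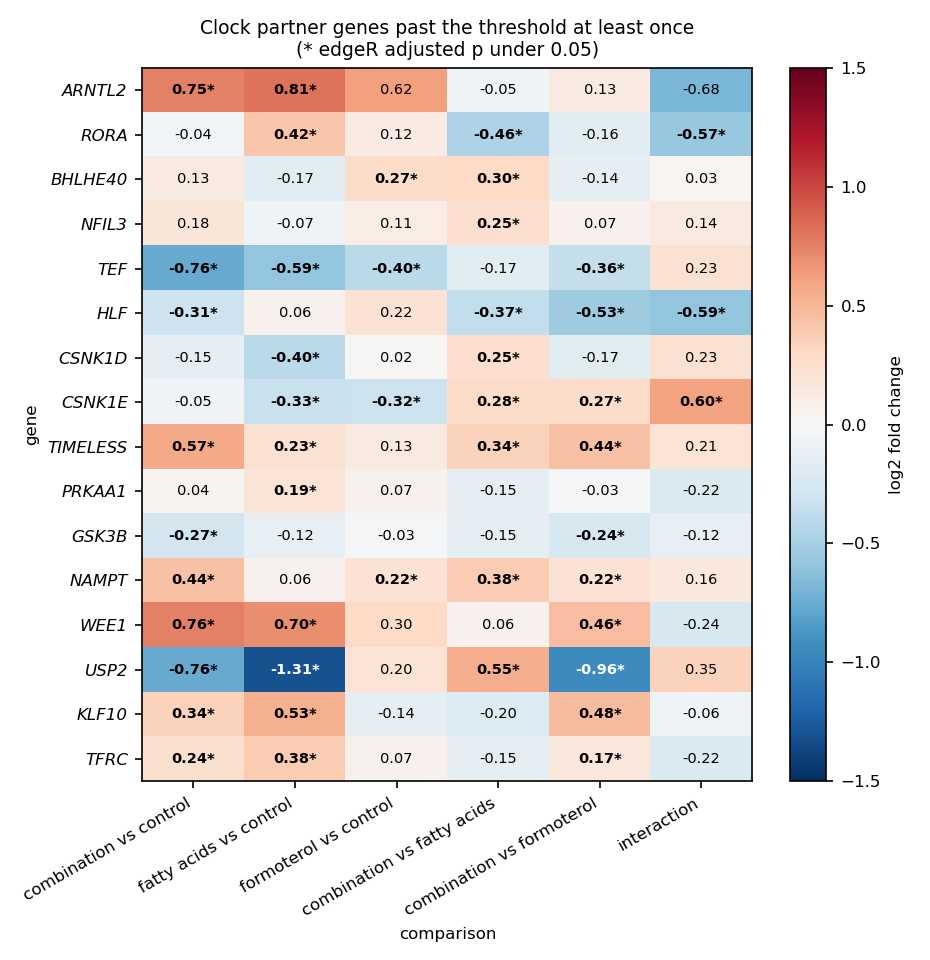
Log2 fold changes (colour and printed value) of 16 clock partners that passed the threshold at least once (y axis), in the 5 comparisons and the interaction (x axis); an asterisk marks an edgeR adjusted p under 0.05. TEF is blue in all 3 comparisons with control, and USP2 is darkest with fatty acids, at −1.31.

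PER1 was also set beside the 2 signals named above as its known drivers. Of 15 cAMP response genes, 5 rose and 1 fell with formoterol, beside 10.3% of all tested genes called and with a median of 0.16 over the list, among them CGA by 4.50 ± 0.20, PDE4D by 1.08 ± 0.12 and NR4A3 by 1.19 ± 0.17 on the log2 scale, while PER1 fell. With fatty acids 1 rose and 8 fell, beside 16.5% of all tested genes and with a median of −0.47, with changes of −0.76 ± 0.07 for PPARGC1A and −0.59 ± 0.07 for DUSP1, and PER1 fell too. Against fatty acids alone the combination had 6 of the 15 higher and 0 lower, beside 1.68% and 1.12% of all tested genes and with a median of 0.27. Of 12 glucocorticoid response genes, 1 rose and 6 fell with fatty acids (median −0.19) and 2 rose and 3 fell with formoterol (median −0.13), beside the same 16.5% and 10.3% of all tested genes. TSC22D3 (GILZ), a direct target of the glucocorticoid receptor, changed by −0.85 ± 0.06 in the combination, −0.51 ± 0.06 with fatty acids and −0.71 ± 0.06 with formoterol against control. The list was not uniform: its log2 changes ran from −1.39 to 1.83, −1.07 to 1.75 and −0.71 to 1.28 in the same order. PDK4 averaged 2628 CPM in the combination, 2480 with fatty acids and 776 with formoterol, against 739 in control. The part of either signal in the PER1 result was not tested.

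Some clock genes share exon bases with a gene on the other strand, and the sources used here do not give whether the counting used strand. SPHK2 shares 661 exon bases with DBP and had 2.35 times its counts, and THRA shares 263 with NR1D1 and had 5.11 times its counts. TMEM165 shares 76 exon bases with CLOCK. SPHK2 had log2 differences of 0.27 ± 0.15 in the combination and 0.03 ± 0.15 with fatty acids against control (edgeR adjusted p = 0.271 and 0.925), where DBP changed by −0.70 and −0.79. THRA fell by 0.31 on the log2 scale with formoterol (SE 0.07, edgeR adjusted p = 0.00495), where NR1D1 differed by −0.29. Reads of NR1D1 and of DBP are therefore uncertain to the extent that they were shared.

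The protein-coding genes whose level followed a clock gene most closely were found by the Pearson correlation of log2 CPM over the 16 libraries among 11555 genes, as a description in which the libraries share their groups. ARNTL was most like PIGV (r = 0.915), SIAE (0.914) and ETNK2 (0.913). PER1 was most like UNC13D (0.924), FAM129B (0.895) and IL3RA (0.889). CRY1 was most like AADAC (0.927), SLC28A1 (0.923) and VIL1 (0.92), and DBP was most like SULT1A2 (0.875), SDR16C5 (0.874) and PIM3 (0.869). With the group means removed, these correlations were 0.75 to 0.859 for ARNTL, 0.772 to 0.848 for PER1 and 0.808 to 0.88 for CRY1, and lower for DBP, at 0.522 to 0.695.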

How the data were processed

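The authors deposited a table of gene counts, whole numbers that sum to 32471299 to 65673126 per library. Tools named in the submitters' processing notes are HISAT2 2.0.5 and DESeq2. The same notes name mm39, a mouse genome, although all 58735 IDs are human, 0 are mouse, and all match the names and coordinates of GENCODE release 29 (GRCh38). The sources used here give neither the counting program nor the strandedness.

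From these counts, genes were filtered with filterByExpr, which left 18121 genes and 99.94% of counts, scaled by TMM and tested with edgeR 4.0.16 quasi-likelihood tests (R 4.3.3). A single fit held 4 group means over 16 libraries (12 residual degrees of freedom). P-values were adjusted by Benjamini-Hochberg over all tested genes, and a gene was called at 0.05. For log2 CPM the prior count was 2. The fit was tested on simulated data. DESeq2 1.42.0 was an alternative, as were other scalings and filters, a replicate block, fits of only the groups compared and the removal of each library. Members and gene lists were chosen with earlier results of these data known. The text names all 10 members, every partner called in any comparison (except 1 that is not reported here), at most 3 genes of the smallest p from other lists, and the 3 genes most like each called member. Tables and figures used Python 3.11.15.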

Additional observations from a re-analysis of the deposited data

Results flagged for a closer look

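In 40 sets of 4 libraries (10 clock genes in 4 groups), 2 had a library far from the other 3, and chance gives about 1 in 20. CRY2 in formoterol replicate 1, at 56.4 CPM against 65.8 to 66.7 CPM in the other 3, was separated from its nearest neighbour by 0.908 of the group's range. DBP in fatty acids replicate 4, at 3.03 CPM against 1.86 to 1.96 CPM, was separated by 0.916 of the range, and DBP stayed called lower with fatty acids in all 23 alternatives, the removal of that library among them.

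The response to formoterol differed with and without fatty acids for PER1, by 0.52 on the log2 scale. Among the clock partners it differed for RORA by −0.57, for HLF by −0.59 and for CSNK1E by 0.60. Without combination replicate 2 these were 0.42, −0.55, −0.51 and 0.56 in the same order of genes.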

How the results depend on the processing

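Over 410 values of single clock genes under settings other than leaving out a library, 387 kept direction and call, 4 lost a call, 7 gained one, 0 called values changed sign and 12 uncalled ones did. Over 960 values with a library left out these numbers were 883, 32, 4, 0 and 41. With library totals only, 5 clock genes were called with formoterol in place of 1, the median of all genes was 0.14 for the combination against formoterol and 0.17 for the interaction, and higher calls made up 81.0% and 74.6% of calls in place of 51.4% and 38.5%. With no filter, 1 clock gene (ARNTL) was called in the combination against control in place of 3, 880 genes were called in the combination against fatty acids in place of 507, and 1523 in the interaction in place of 997. DESeq2 called 795 genes in the combination against fatty acids, and a fit of those 2 groups alone called 275. Leaving out 1 library gave 0 to 2 clock genes called with formoterol, 1 to 3 in the combination against control and 0 to 1 in the interaction, and 1002 to 2588, 302 to 590 and 444 to 1325 genes in all for formoterol, the combination against fatty acids and the interaction. The lowest counts for formoterol and the interaction came without control replicate 3. The causes of these differences were not tested. Same-numbered libraries correlated at −0.293 to 0.256 in their deviations from group means. Of 4 libraries, 3 correlated best with their own number in the combination against fatty acids and 2 in the combination against formoterol. With formoterol against control it was 1, and 0 with fatty acids or the combination against control. With 4 pairs in each comparison, this does not settle whether the numbers mark pairs. With a replicate block, 3 clock genes were called with fatty acids, 1 with formoterol, 1 in the combination against formoterol, 0 against fatty acids and 1 in the interaction, as without it, but 2 in the combination against control, where CRY1 was lost (0.30, adjusted p = 0.0587). PER2 and DBP had the fewest counts and the largest standard errors of the 10 genes in the 5 comparisons, 0.26 and 0.21, and the part of depth in this was not tested.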
